A study of Mus musculus with 2 samples.

Results

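The 9 genes described here encode the keratins of the inner root sheath and the companion layer of the hair follicle. They were chosen by name as the type I inner root sheath keratins Krt25, Krt26, Krt27 and Krt28, the type II inner root sheath keratins Krt71, Krt72, Krt73 and Krt74, and the type II companion layer keratin Krt75. All 9 were measured, among 22180 genes in all. Each had 1 transcript cluster, the unit that the array reports for a gene, and each cluster carried 1 gene symbol in the platform annotation.

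RNA came from dorsal skin of male BALB/cAJcl mice aged 7 weeks, with 1 array for a saline control and 1 array for FGF18, a growth factor whose signalling the series title places in the resting hair cycle. By the series' design text, hair was removed to start growth, 100 µg of FGF18 in saline with 5 µg/µl heparin was injected into the peritoneum 6 days later, and 6 Gy of γ-rays was given to the whole body 24 h after that, with skin taken 4 h after irradiation. The labels call the other sample a saline control and do not say whether it received hair removal, heparin or irradiation, or from how many mice the RNA came, so the arrays may differ by more than FGF18. With 1 array a group there are no replicates, no significance test and no error between animals. Every difference below is FGF18 minus saline between these 2 arrays on the log2(intensity + 1) scale.

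Keratins form filaments as pairs of 1 acidic type I and 1 basic type II chain. The inner root sheath is the rigid sleeve that moulds the growing hair, and the companion layer is the sheet of flat cells between it and the outer root sheath. The inner root sheath is built anew in each growth phase of the follicle. In studies of the human follicle, the counterparts of Krt25, Krt27, Krt28 and Krt71 are made in all layers of the inner root sheath, those of Krt26, Krt72 and Krt73 in its cuticle, and that of Krt74 in the Huxley layer. Mouse mutations in Krt71 (Caracul) and Krt25 (Rex) give a curly coat.

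The genes lie in the keratin loci of chromosome 11 (type I) and chromosome 15 (type II). The last 80 bases before the transcription start are shown for the 8 genes that the RefSeq promoter table (GRCm38.p6) holds. All 8 lie on the minus strand and are written 5′ to 3′ in the direction of transcription. The stretches are chr11:99322952-99323031 for Krt25, chr11:99337966-99338045 for Krt26, chr11:99351119-99351198 for Krt27 and chr11:99374904-99374983 for Krt28. On chromosome 15 they are chr15:101743098-101743177 for Krt71, chr15:101786521-101786600 for Krt72, chr15:101802361-101802440 for Krt73 and chr15:101573905-101573984 for Krt75. Capitals mark TATAAA, the core of the TATA box, on the strand shown.
Krt25: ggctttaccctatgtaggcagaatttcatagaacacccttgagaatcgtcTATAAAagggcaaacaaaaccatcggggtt
Krt26: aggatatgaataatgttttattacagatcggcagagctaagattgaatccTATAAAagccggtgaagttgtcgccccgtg
Krt27: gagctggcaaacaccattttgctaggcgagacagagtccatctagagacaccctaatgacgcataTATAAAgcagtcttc
Krt28: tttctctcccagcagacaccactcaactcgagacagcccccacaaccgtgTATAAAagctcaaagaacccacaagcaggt
Krt71: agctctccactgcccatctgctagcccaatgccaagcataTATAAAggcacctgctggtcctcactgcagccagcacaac
Krt72: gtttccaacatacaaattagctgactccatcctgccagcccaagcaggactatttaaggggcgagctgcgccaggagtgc
Krt73: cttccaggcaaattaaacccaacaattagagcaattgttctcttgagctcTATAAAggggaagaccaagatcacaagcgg
Krt75: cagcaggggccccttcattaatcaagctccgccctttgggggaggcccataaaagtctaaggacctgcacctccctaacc

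TATAAA stood on the sense strand, the one shown, within the last 50 bases in 6 of these 8 promoters, against 2.63% of the 32851 promoters in the table. It began 30 bases before the start in Krt25, Krt26, Krt28 and Krt73, 40 bases before it in Krt71 and 15 bases before it in Krt27. These exact letters are not in that window of Krt72 and Krt75. Within 250 bases before the start and on either strand, the homeodomain core TAATTA was in 4 of the 8 promoters (Krt25, Krt28, Krt71 and Krt73), against 4.84% of all promoters. GATA sites, searched as AGATAA and its forms with T at the front, G at the end or both, were in 4 of 8 (Krt25, Krt27, Krt71 and Krt73), against 26.5%. TCF/LEF sites, searched as CTTTGAA and its forms that end in AT or TT, were in 1 of 8 (Krt25), against 12%, and the AP-1 site TGACTCA was in 0 of 8, against 4.46%. In Krt71 the TAATTA and AGATAA matches share 1 base. These matches describe letters in the sequence and not binding. They were not set against the promoters of other keratins alone, and a link to the differences between the arrays was not tested.

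The longest run of letters shared by any pair of the 8 promoters joins Krt71 and Krt73, which lie close together on chromosome 15. It is 14 bases long and begins 196 bases before the start of Krt71 and 154 before that of Krt73. In the 250 bases before the start, 2 promoters of the 32851 hold this run on either strand. These are Krt71 and Krt73 themselves, from which the run was taken, so the count could not be lower. The stretches that hold it, chr15:101743274-101743343 for Krt71 and chr15:101802495-101802564 for Krt73 (GRCm38.p6, minus strand), are shown with the AGATAA match and the shared run in capitals.
Krt71: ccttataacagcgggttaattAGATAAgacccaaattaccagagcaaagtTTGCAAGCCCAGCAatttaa
Krt73: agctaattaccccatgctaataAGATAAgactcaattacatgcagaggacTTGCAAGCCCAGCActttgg

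The sheath keratins were higher on the FGF18 array, by close to 2-fold for 8 of the 9. Every gene but Krt74 had a difference from 0.85 to 1.16, and the median over all 9 was 1.002, a fold of 2.00, against a median of 0.00 over all 22180 genes. All 9 read higher after FGF18, beside 49.5% of all genes, and 5 of 9 were at least 2-fold higher. The level over both arrays reached the median over genes in 11090 genes. Of these, 59.4% were higher by any amount, with a median difference of 0.07, and 0.379% were at least 2-fold higher. At 1.5-fold the count was 8 of 9, against 3.64% of those genes. With a pseudocount of 16 in place of 1, the 2-fold count was 3 of 9, against 0.117%. Krt74 was not among those 11090 genes, and the other 8 were. The median of each array over all clusters was 14 in saline and 13.8 after FGF18, and these 8 genes lay above it on both arrays. In bulk skin, more cells of a type and more RNA per cell cannot be told apart.

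The type I chains were alike in their differences. Krt25 read 446 in saline and 807 after FGF18, 1.81-fold higher on the log2(intensity + 1) scale. Krt27 read 504 and 1048, 2.08-fold higher. Krt28 read 228 and 508, 2.23-fold higher. These are the type I chains of all inner root sheath layers, and each was higher after FGF18. Krt26, the cuticle chain, read 48.1 and 94.3, 1.94-fold higher. The 4 differences ran from 0.85 (Krt25) to 1.16 (Krt28), with a median of 1.01. Along chromosome 11 the differences are in gene order, 0.85 for Krt25, 0.96 for Krt26, 1.06 for Krt27 and 1.16 for Krt28, in steps too small to order the genes, as set out below.

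The type II chains included the exception. Krt71, the type II chain of all inner root sheath layers, read 776 in saline and 1556 after FGF18, 2.00-fold higher. The cuticle chain Krt72 read 94.7 and 211, 2.21-fold higher. The cuticle chain Krt73 read 300 and 565, 1.88-fold higher. These 3 genes stood at differences of 1.002, 1.14 and 0.91, inside the span of the type I chains. Krt74 read 9.50 in saline and 11.2 after FGF18. Both values lie below the median of their array, so Krt74 is not shown above background and no fold is given. RefSeq (GRCm38.p6) lists mouse Krt74 as a transcribed pseudogene and the other 8 genes as protein coding. Krt75, the companion layer keratin, read 39.9 in saline and 87.6 after FGF18, 2.17-fold higher, with a difference of 1.12.

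**Figure D1:**
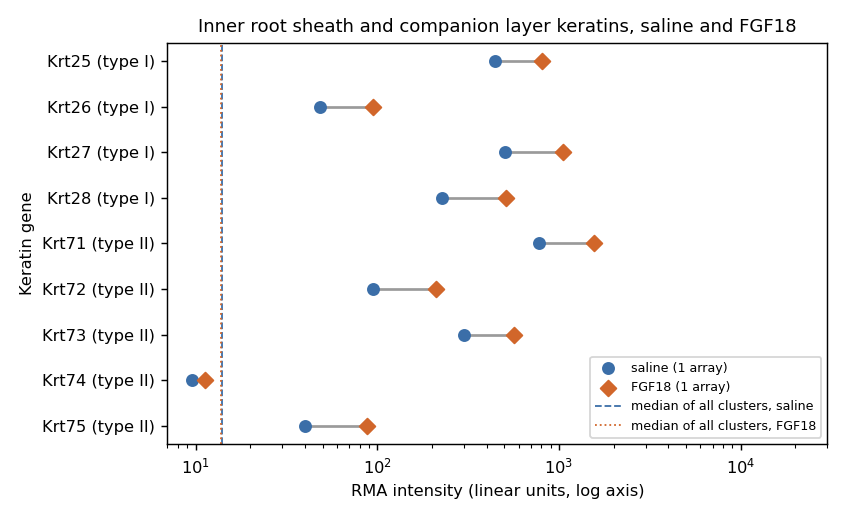
RMA intensity of the 9 keratins on the saline array (circles) and the FGF18 array (diamonds), on a log axis, 1 array each, with dashed and dotted lines at the medians of all clusters (14 and 13.8). Lines join the values of a gene: 8 genes lie above both medians and shift by a similar distance, while Krt74 (9.50 and 11.2) lies below both.

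The arrays give no means to rank the 8 bright genes by their differences. Their standard deviation over genes was 0.11, and the gap from the lowest (Krt25) to the highest (Krt28) was 0.30. Over 319 symbols with several clusters above the median level, clusters of the same symbol had a standard deviation of 0.25 in their differences, which puts the standard deviation of a gap between 2 clusters at 0.36. This covers disagreement between probe sets only and not the spread between animals. By layer, the 4 genes of all inner root sheath layers had a median of 1.03 and the 3 cuticle genes a median of 0.96, beside 1.12 for Krt75 of the companion layer. These layer values differ by less than that gap. The 2-fold line also divides the genes finely, with Krt71 just above it at 1.002 (2.00-fold) and Krt26 just below it at 0.96 (1.94-fold).

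Krt28 ranked 18th, Krt72 23rd, Krt75 27th, Krt27 36th and Krt71 42nd from the highest difference among those 11090 genes. Krt26, Krt73 and Krt25 ranked 55th, 63rd and 77th. Among the 53 keratin genes measured, 7 were at least 2-fold higher, where 0.379% of those 11090 genes were. Not all of the 53 are among the 11090. Of the 7, 5 were sheath keratins. The other two were the hair shaft keratins Krt31, at 1.22, and Krt82 of the hair cuticle, at 1.02. With a pseudocount of 16 these were 0.81 and 0.87, both under 2-fold. The sheath keratins Krt71 and Krt75 were then under 2-fold as well, at 0.99 and 0.89.

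**Figure D2:**
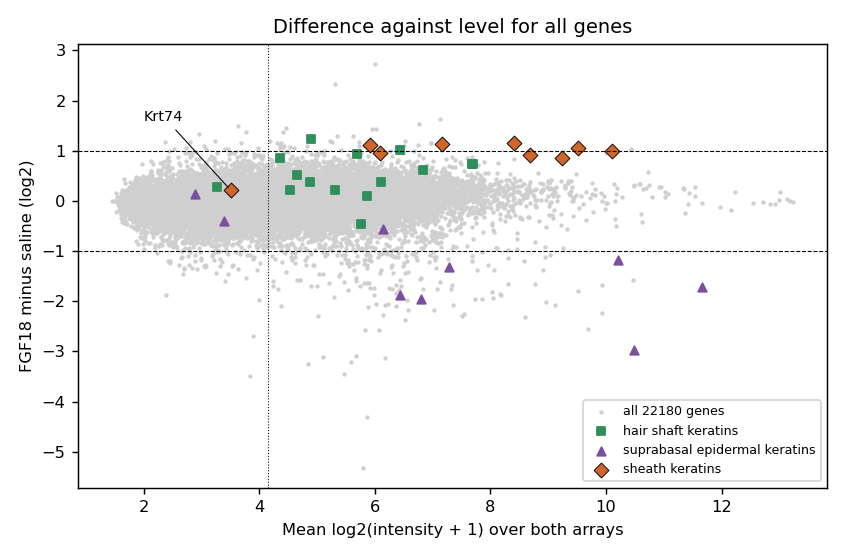
Difference (FGF18 minus saline, log2) against mean log2(intensity + 1) over both arrays for 22180 genes, with sheath keratins (diamonds), hair shaft keratins (squares) and suprabasal epidermal keratins (triangles). Dashed lines mark 2-fold and the dotted line the median level. The 8 bright sheath keratins lie between 0.85 and 1.16 over a wide span of levels, and Krt74 lies left of the median level.

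Neighbours of the sheath keratins on the chromosome had other values. On chromosome 11 the 4 type I genes stand in an unbroken row. Krt24, the keratin gene on one side of them, read 7.83 and 6.63, below the array medians. On the other side lies Krt10, a keratin of suprabasal epidermis, which read 5892 in saline and 1799 after FGF18, 3.27-fold lower, next to Krt28 at 2.23-fold higher. On chromosome 15, Krt73 lies beside the epidermal keratin gene Krt2, which read 217 and 55.6, 3.85-fold lower. Krt71 lies beside Krt5, which had no cluster with 1 symbol and was not used here.

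Krt75 stands apart from the other type II sheath keratin genes, between Krt90 and Krt6b. Krt90 read 22.4 and 20.7, a difference of -0.11, and Krt6b, a keratin of wounded epidermis, read 256 in saline and 12.1 after FGF18. On chromosome 15, 16 other keratin genes were among the 11090, and of these 4 were higher, 6 were at least 2-fold lower and 1 was at least 2-fold higher. Of the 16 on chromosome 11, 12 were higher, 3 were at least 2-fold lower and 1 was at least 2-fold higher. Among all 11090 genes, the share with any higher value was 59.4%, and 0.379% were higher by 2-fold or more. The share lower by 2-fold or more was 1.65%. The lower counts include Krt6b and Krt16, which lay below the FGF18 array's median. Keratin genes are close copies of each other, and how well the probes separate them was not tested.

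**Figure D3:**
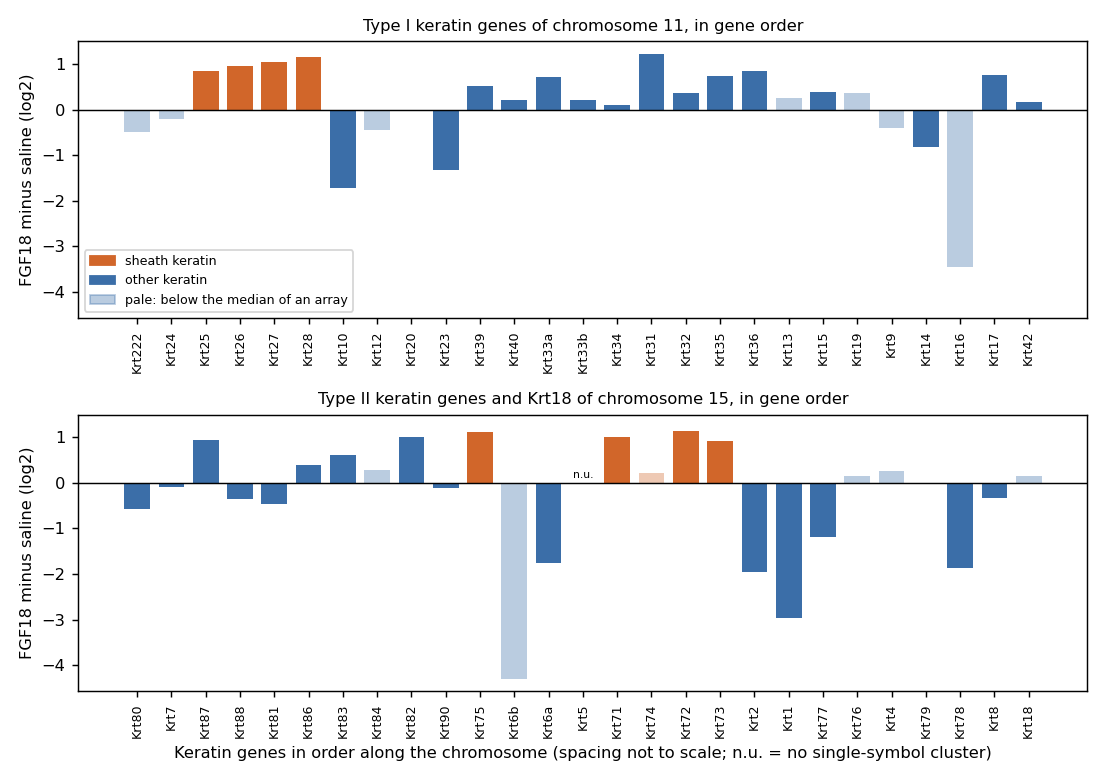
Difference (FGF18 minus saline, log2) of keratin genes in order along chromosome 11 (top) and chromosome 15 (bottom), with sheath keratins in orange, other keratins in blue, and pale bars for genes below the median of an array. Spacing is not to scale. Krt28 (1.16) stands next to Krt10 (-1.71), and Krt73 (0.91) next to Krt2 (-1.95).

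Other keratins linked with the companion layer had values on both sides of 0. Krt17, also of the outer root sheath, read 214 in saline and 364 after FGF18, 1.70-fold higher. Krt6a read 157 and 45.4, 3.41-fold lower. Krt16, the type I keratin that pairs with Krt6 chains in wounded skin, read 145 and 12.4, and like Krt6b it lay below the FGF18 array's median. The list of Krt6a, Krt6b, Krt16 and Krt17, 4 genes, had 1 member higher and 3 at least 2-fold lower, where 1.65% of the 11090 genes were at least 2-fold lower. Its median of -2.61 averages Krt6a with Krt16, which is not shown above background after FGF18, so it is no measured fold. These genes are also made by wounded or stressed epidermis, so the list does not measure the companion layer alone.

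Genes that build the inner root sheath around its keratins had differences of both signs. Tchh, which encodes trichohyalin, the matrix protein that binds keratin filaments in the inner root sheath, read 736 in saline and 1435 after FGF18, 1.95-fold higher, within the span of the sheath keratins. Padi3, whose enzyme converts arginine in trichohyalin to citrulline, read 45.0 and 77.2, 1.70-fold higher. Tchhl1, a trichohyalin-like gene, had a difference of 0.24, and Padi2 read 13.3 and 15.1.

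The crosslinking and adhesion genes on that list, which cornifying epidermis also makes, were lower. The transglutaminase genes Tgm1, Tgm3 and Tgm5, whose enzymes crosslink proteins, had differences of -1.02, -0.57 and -0.48. Cdsn, the corneodesmosin gene, read 417 and 106, 3.89-fold lower. The desmosome genes Dsc1, Dsg1a and Dsg1b stood at -1.38, -1.19 and -0.81. The list as a whole had 4 of 11 measured members higher and 7 lower, 4 of them at least 2-fold, with a median of -0.57. Of the 11090 genes, which hold all of the 11 but Padi2, 38% were lower by any amount and 1.65% at least 2-fold lower. The 7 lower genes of the list are active in epidermis as well. What the inner root sheath contributed to the values of the list, higher or lower, was not tested.

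Regulators of follicle lineages were mostly higher. Their median was 0.54, with 9 of 11 measured genes higher, 2 lower and 1 at least 2-fold higher. All 11 belong to the 11090 genes, of which 59.4% were higher by any amount, with a median of 0.07. The gene at 2-fold was Hoxc13, a homeobox factor of hair keratin genes, which read 18.5 and 40.5, a difference of 1.09 that was 0.71, under 2-fold, with a pseudocount of 16. The Wnt effector Lef1, the receptor gene Notch1 and the homeobox genes Msx2 and Dlx3 had differences of 0.79, 0.74, 0.68 and 0.67. Foxn1, the factor mutated in nude mice, and Sox21 stood at 0.28 and 0.22, and Bmpr1a, a BMP receptor gene, at 0.03.

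The regulators best known from the inner root sheath had smaller differences than its bright keratins. Gata3, which is needed for this lineage, read 44.6 in saline and 42.7 after FGF18, a difference of -0.06. Cux1, a repressor made in the inner root sheath, read 21.5 and 31.7, a difference of 0.54. It averages 2 clusters, and the brighter of them gave 0.81. What cells outside the inner root sheath contributed to the Gata3 and Cux1 values was not tested. Prdm1 was the lowest of the list at -0.65 and is also made in differentiating epidermis. The hair shape genes of the lysophosphatidic acid and EGF receptor pathway had 1 of 4 higher and a median of -0.24. Among the 11090 genes, 59.4% were higher by any amount and 38% lower. Egfr, the receptor, stood at 0.31, Tgfa, its ligand, at -0.17, Adam17, the protease that frees the ligand, at -0.31, and Liph, the lipase that makes lysophosphatidic acid, at -0.31.

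Beside the other keratin lists, the sheath keratins had the highest median. The hair shaft keratins, all but Krt84 among the 11090 genes, had 14 of 15 measured members higher, against 59.4% of the 11090. Their median was 0.53, from -0.47 (Krt81) to 1.22 (Krt31). Krt82 at 1.02 and Krt87 at 0.94 lay inside the span of the 8 bright sheath keratins, and Krt36 at 0.848 just below it. The standard deviation over genes of the hair shaft keratins was 0.43 over all 15, beside 0.29 over all 9 sheath keratins. Among genes above the medians of both arrays it was 0.44 over 14 hair shaft keratins and 0.11 over 8 sheath keratins. The suprabasal epidermal keratins, all but Krt9 and Krt76 among the 11090 genes, had 8 of 9 lower and 6 at least 2-fold lower. Of the 11090 genes these shares were 38% and 1.65%. The median of the list was -1.32, and Krt1, its lowest member, was 7.80-fold lower. The basal and outer root sheath keratins had no common direction. Krt15 stood at 0.40 and Krt14 at -0.81, and Krt19, whose difference of 0.37 is the median of the 3 measured genes, read 7.75 and 10.3, below the median of both arrays. The simple epithelial keratins, which skin makes little of, had a median of -0.06.

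Markers of other skin cells give the setting of these values. Of the 11090 genes, 59.4% were higher by any amount, 38% were lower and 1.65% were at least 2-fold lower. All 6 markers of differentiated epidermis were lower, 5 at least 2-fold, with a median of -1.93, and their summed intensity was 5777 in saline and 1773 after FGF18. The summed intensity of the 9 sheath keratins was 2445 in saline and 4888 after FGF18. Markers of melanocytes, which follicles hold in the growth phase, had 5 of 6 higher and a median of 0.43, with sums of 702 and 966. Dermal papilla markers, all but Prom1 among the 11090 genes, had 5 of 8 higher, close to the 59.4% of the 11090. Their median was 0.29, with sums of 443 and 615, led by Wif1 at 0.78. Markers of basal epidermis and outer root sheath, outside the keratins, were higher in 3 of 3, with a median of 0.37 and sums of 297 and 364. The lowest of them, Itga6, stood at 0.03. Keratins of the same cells differed in sign, with Krt14 at -0.81, Krt15 at 0.40 and Krt17 at 0.76. None of the markers listed was at 0 on either array. The part that the mix of cells played in the sheath keratin values was not tested.

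Markers of other compartments had smaller medians. These were 0.02 for the sebaceous gland (3 of 5 higher, sums of 609 and 557), 0.24 for leukocytes (4 of 5, 117 and 149) and -0.12 for adipocytes (1 of 4, 495 and 641). They were -0.29 for fibroblasts (2 of 6 higher, sums of 874 and 834) and -0.27 for skeletal muscle (1 of 6, 4365 and 3653). No marker in these 5 lists was at least 2-fold higher, and 1, Casq1 of muscle at -1.14, was at least 2-fold lower.

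**Figure D4:**
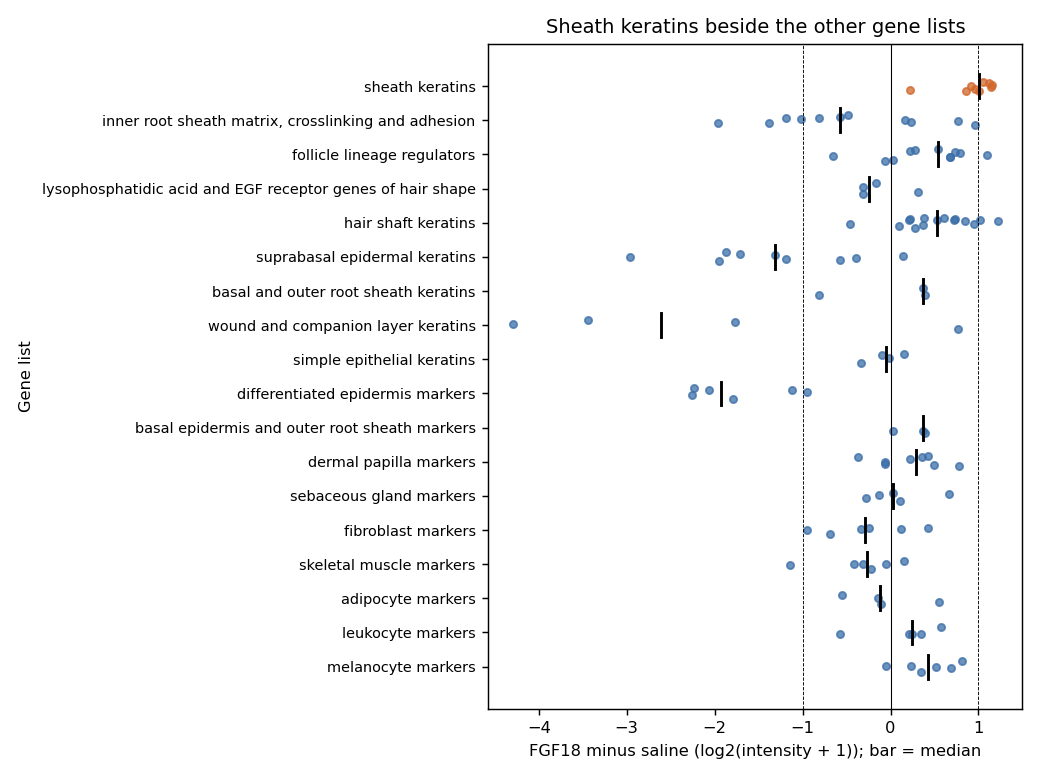
Difference (FGF18 minus saline, log2) of each gene in the lists, with black bars at list medians, a solid line at 0 and dashed lines at 2-fold. The sheath keratins (orange) have a median of 1.002, with Krt74, below the medians of both arrays, as their lowest point. The hair shaft keratins lie at a median of 0.53, and the suprabasal epidermal keratins and differentiated epidermis markers lie at -1.32 and -1.93.

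The 5 genes outside the keratin families whose log2 values on the 2 arrays lay nearest to the medians of the sheath keratins were Pdlim3, Sat1, Cd81, Myot and Ctnnb1, at distances of 0.45 to 0.54 on the log2 scale. Pdlim3, the nearest and a gene of muscle, read 266 in saline and 387 after FGF18, a difference of 0.54. The other 4 had differences from 0.40 to 0.46. This distance follows the level of a probe as well as the difference between arrays, so it does not pick out genes that differ alike, and Tchh at 0.96 is not among them.

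**Figure D5:**
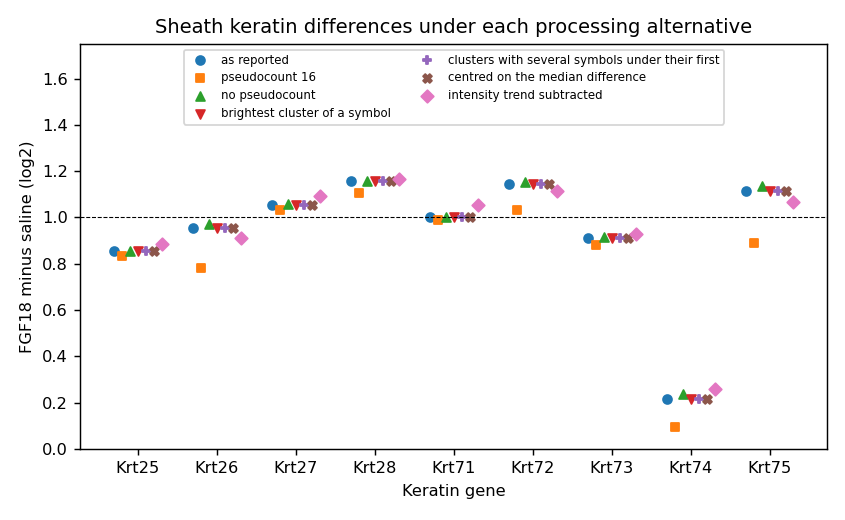
Difference (FGF18 minus saline, log2) of each keratin as reported and under 6 processing alternatives, with the dashed line at 2-fold. The brightest cluster, several-symbol clusters and centring left every one of these values unchanged. Among the 8 bright genes a pseudocount of 16 lowers Krt75, Krt26 and Krt72 most (to 0.89, 0.78 and 1.03), and every value plotted lies above 0.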

How the data were processed

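The authors processed both arrays with Affymetrix Expression Console and RMA, per the submitters' processing notes, with no version stated there. RMA subtracts background, gives all arrays the same distribution and combines the probes of a cluster. The range of the deposited intensities shows a linear scale (up to 11488 in saline and 11532 after FGF18). Arrays have no read depth, and having 1 a group limits the precision.

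Of 41345 clusters, 23521 had 1 gene symbol, 1814 several and 16010 none. Only the first were used. From the deposited intensity, log2(intensity + 1) was taken, clusters of a symbol were averaged, and saline was subtracted from FGF18 (Python 3.11.15, pandas 2.3.3). The level filter was the median over genes of the mean log2 value (4.15). The steps were tested on simulated data. All 9 keratins matched the mouse gene table (GRCm38.p6) by Entrez identifier. Sequences come from RefSeq.

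The keratins and gene lists were chosen with earlier results of these data known. Named genes are the 9 keratins, their keratin neighbours, the extremes of each list, a set fixed by name and the 5 nearest genes; other list members are named after their values were seen. A gene below the median of an array gets no fold. Padi1, Msx1, Lpar6, Krt85, Krt5 and Cfd had no cluster with 1 symbol and were not analysed here.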

Additional observations from a re-analysis of the deposited data

How the results depend on the processing

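Alternatives were a pseudocount of 16 or none, the brightest cluster of a symbol, clusters with several symbols under their first, centring, and removal of the trend of difference with level by loess (span 0.3). All 9 sheath keratin differences stayed above 0 under each. Each of these genes has 1 cluster, so taking the brightest could not change its value. Clusters with several symbols also left all 9 values as they were. The median difference over all genes was 0.00, so centring changed nothing. With a pseudocount of 16, which shrinks differences of dim genes, 3 sheath keratins (Krt27, Krt28 and Krt72) were at least 2-fold higher in place of 5, the background count was 13 in place of 42, and the wound and companion layer list had a median of -1.998. At 1.5-fold the sheath keratin count was 8 and the background count 404, and with a filter at the 75th percentile the background count at 2-fold was 27. With several-symbol clusters, which add Krt5, the basal keratin list had a median of 0.053. For Cux1 the brightest cluster gave 0.81. No paired analysis was possible because each group has 1 array. Values with no replicates were called moved where they shifted by more than the standard deviation between clusters of a symbol, 0.25.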
